A study of Mus musculus with 6 samples.

Results

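The mitochondrial ribosomal protein (MRP) genes of c-Kit+ APL progenitors and of normal myeloid progenitors (MPs) were compared by RNA-seq. Members were all genes of the table whose symbol starts with Mrpl or Mrps followed by a number, which gave 76 of 16440 genes, and all 76 had values high enough to be tested. Large subunit proteins made up 49 of them and small subunit proteins 26. The remaining one, Mrps36, keeps an MRP symbol although its protein is known as a part of the alpha-ketoglutarate dehydrogenase complex. Symbols and subunits do not always match: the proteins of Mrps30 and Mrps18a sit in the large subunit and were counted there.

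The MP group was 3 libraries of Lin-Sca-1-c-Kit+ cells sorted from normal bone marrow (BM). The APL group was 3 libraries of GFP-labeled c-Kit+ leukemia cells, and no drug is named for either group. The labels give the strain FVB N/J for the samples. The leukemia came from hMRP8-PML/RARα transgenic mice, in which a human promoter active in myeloid cells drives the fusion gene. The name MRP8 there is an old one for S100A8 and has nothing to do with ribosomes. APL cells received GFP from the retroviral vector MigR1 and were grown in syngeneic mice before sorting, while normal MPs were neither transduced nor transplanted. Lin and Sca-1 are named for the sort of normal MPs alone. Transplantation, GFP, the sort gate and leukemia thus cannot be told apart. The design text speaks of 3 biological replicates per group. The sources used here do not say whether the 3 APL libraries came from separate primary leukemias, and p-values then measure only the spread between these libraries.

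Mitochondria carry their own ribosome, which translates the few mRNAs of the mitochondrial genome, all of them for subunits of the respiratory chain. All MRP genes are nuclear. Their mRNAs are read by cytosolic ribosomes and the proteins are imported and assembled on mitochondrial rRNA. Part of the proteins descend from the bacterial ancestor, many but not all of them with its numbering, and the rest were added in the mitochondrial lineage. The particle is required for oxidative phosphorylation, and blood-forming progenitors are known to rely more on it as they differentiate.

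Libraries held 22976881 to 26932324 fragments in normal MPs and 20608738 to 28382773 in APL. Every member had at least 92 fragments in every library. The deposited fragment values are on a scale of 1 factor per library and are called scaled fragments here, and FPKM values (fragments scaled to transcript length and library size) are used to compare levels between genes. MP library 3 stood apart: 75 of 76 members (98.7%) had their highest MP value there, against 56.3% of all genes tested, and the counts of the main comparison and of each list were repeated without it. Kit, the receptor used in both sorts, was itself 1.8-fold lower in APL, and Ly6a, which encodes Sca-1, was called higher (1.6-fold, adjusted p = 0.0434) at 19.1, 30.6 and 32 scaled fragments in normal MPs and 39.0, 42.5 and 48.8 in APL. Some markers of other lineages differed between the groups too. Erythroid markers summed to 1520 to 1994 FPKM in normal MPs and 13.9 to 25.2 in APL (8 of 9 tested called lower), megakaryocyte markers to 69.1 to 105 and 3.59 to 5.4 (5 of 7 called lower), and neutrophil granule genes to 20298 to 28000 and 72458 to 87063 (2 of 12 called lower and 5 called higher). T cell markers (1 of 3 called lower) stayed at or below 5.64 FPKM in sum, with Cd3e at 0 in all MP libraries, and B cell markers (3 of 5 called lower, 1 called higher) at or below 15.6. NK cell markers summed to 232 to 260 FPKM in normal MPs and 240 to 266 in APL (1 of 3 called lower). Of these sums, Nkg7 alone made up 231 to 259 FPKM in normal MPs and 240 to 265 in APL. Among the other NK cell markers the highest value in any library was 0.284 FPKM (Klrb1c). Monocyte and macrophage markers (3 of 7 called lower, 3 called higher) and mast cell and basophil markers (4 of 5 called lower, 1 called higher) changed in both directions. The part of these marker differences in any MRP value was not tested. In sorted bulk samples, fewer cells of a type and less RNA per cell cannot be told apart.

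The start regions of 4 members are shown as examples, and Mrpl22 was picked for the cores in its sequence. They are Mrpl52 (largest fall), Mrps6 (the next), Mrpl22 (called, with an ETS and an NRF-1 core in the bases shown) and Mrpl17 (largest rise). Each line gives the 150 bases before the RefSeq transcription start on GRCm38.p6, written 5′ to 3′ on the gene's strand. Capitals mark the ETS core CCGGAAG or the NRF-1 core CGCATGCGC read on either strand, where the second kind of site is bound by nuclear respiratory factor 1 and the first by GABP and other ETS proteins.
Mrpl52, chr14:54426759-54426908, plus strand: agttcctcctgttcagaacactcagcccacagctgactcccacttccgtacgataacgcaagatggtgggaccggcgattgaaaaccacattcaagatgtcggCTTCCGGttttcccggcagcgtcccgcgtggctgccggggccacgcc
Mrps6, chr16:92058186-92058335, plus strand: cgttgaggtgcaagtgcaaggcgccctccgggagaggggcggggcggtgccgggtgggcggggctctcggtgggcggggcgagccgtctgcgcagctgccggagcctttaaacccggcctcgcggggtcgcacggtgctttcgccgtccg
Mrpl22, chr11:58171514-58171663, plus strand: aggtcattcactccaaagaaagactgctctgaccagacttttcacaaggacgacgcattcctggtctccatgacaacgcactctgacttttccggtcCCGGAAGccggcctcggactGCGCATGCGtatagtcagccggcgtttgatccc
Mrpl17, chr7:105811088-105811237, minus strand: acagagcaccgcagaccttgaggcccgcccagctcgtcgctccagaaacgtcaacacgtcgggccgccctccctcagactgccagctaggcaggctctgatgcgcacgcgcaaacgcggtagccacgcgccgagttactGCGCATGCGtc
The Mrpl52 window held 1 ETS core that began 47 bases before the start. Mrpl22 held an ETS core at 53 bases and an NRF-1 core at 33 bases before the start, the Mrpl17 window an NRF-1 core at 11 bases, and Mrps6 none of these cores. Over windows from 250 bases before to 50 after the start, entries were found for 67 members (73 starts). In this wider window Mrpl17, like Mrpl22, held both an ETS core and an NRF-1 core. The ETS core was in 32.9% of their windows and in 8.86% of all 32851 windows of the same length, the NRF-1 core in 9.59% and 1.75%, and the YY1 core AAGATGGCG in 11% and 1.4%. The Sp1 box GGGCGG was in 52.1% and 35.7%, CCAAT in 41.1% and 37.4% and the E-box CACGTG in 9.59% and 7.15%. Of the 13 called members with an entry, 5 had the ETS core, 1 (Mrpl22) the NRF-1 core and 2 the YY1 core. The median log2 fold change was -0.32 for the 24 genes with the ETS core and -0.43 for the 43 without. It was -0.21 and -0.38 for the NRF-1 core (7 and 60 genes) and -0.50 and -0.35 for the YY1 core (8 and 59). For the Sp1 box it was -0.31 and -0.44, for CCAAT -0.39 and -0.37 and for the E-box -0.44 and -0.35. These splits were not tested. A match describes letters and not binding.

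MRP mRNAs covered a wide range of levels within each group. Over the 6 libraries, Mrpl33, Mrpl52, Mrps18c, Mrps16 and Mrpl12 had the highest mean FPKM, and Mrps25, Mrpl41, Mrpl1, Mrpl17 and Mrpl35 the lowest. These ranks depend on the length that FPKM divides by. In normal MPs, Mrps25 had 2364, 2539 and 2412 scaled fragments, against 1102, 1136 and 1585 for Mrpl52. Mrpl33 stood at 280 ± 3.63 FPKM (SD, n = 3) in normal MPs and 339 ± 53.8 in APL. Mrps18c, a zinc-binding small subunit protein with a bacterial homologue, had 134 ± 11.7 and 103 ± 10.1 FPKM, and Mrps16 had 118 ± 14.3 and 93.9 ± 8.59. At the other end, Mrpl35 had 11.1 ± 1.40 FPKM in normal MPs and 6.01 ± 0.245 in APL, and Mrpl17 had 8.09 ± 1.21 and 10.4 ± 0.370. Mrpl41, Mrpl1 and Mrps25 were between 7.42 and 12.9 FPKM as group means. One gene changed place: Mrpl52 was the highest of all members in each MP library (318, 348 and 353 FPKM) and stood at 32.02, 43.3 and 35.8 FPKM in APL, where Mrpl33 was the highest in each library. Across the 76 members, the mean log2 FPKM of the 2 groups correlated with r = 0.907. It is a description over genes that share the same libraries and, between groups, the length that FPKM divides by.

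**Figure D1:**
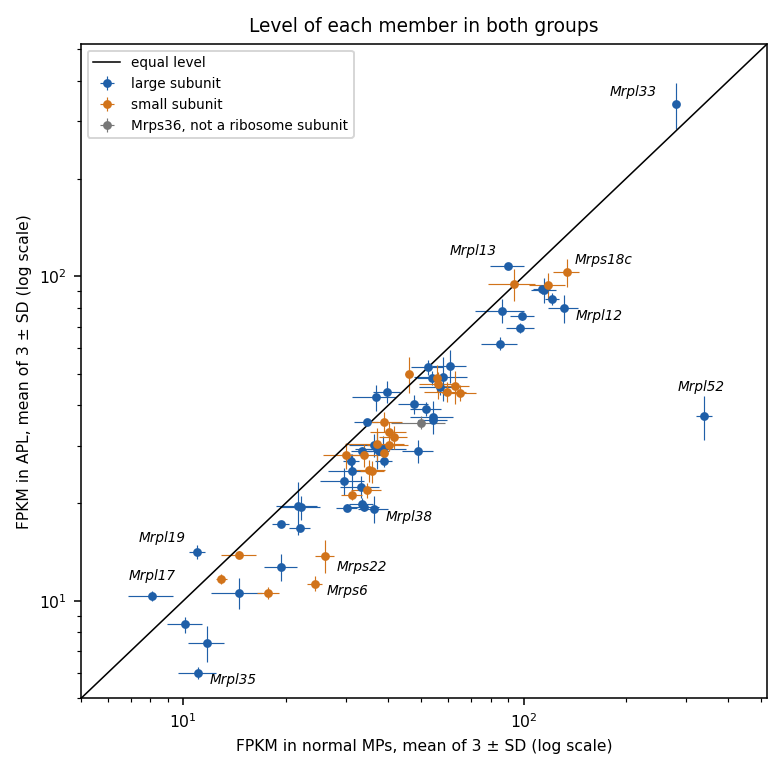
Mean FPKM of each member in normal MPs (x axis, log scale) and in APL (y axis, log scale), with the SD of 3 libraries as bars in both directions, coloured by subunit. Most members lie below the line of equal level, Mrpl33 is at the top in APL, and Mrpl52 lies far below the line at 340 and 37.0 FPKM.

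All members together took 0.749%, 0.779% and 0.755% of the summed FPKM in the normal MP libraries and 0.509%, 0.533% and 0.506% in those of APL, and the groups did not overlap. Without Mrpl52, which alone made up 7.76% to 8.78% of the MRP sum in normal MPs and 1.05% to 1.31% in APL, the shares were 0.687% to 0.710% and 0.50% to 0.526%. Such a share also moves with the most abundant transcripts of a library: without each library's 10 highest genes it was 0.828% to 0.853% in normal MPs and 0.623% to 0.654% in APL. The ratio of summed large to summed small subunit FPKM was 2.34, 2.39 and 2.285 in normal MPs and 2.295, 2.236 and 2.146 in APL, ranges that overlap.

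To find which members differ between c-Kit+ APL progenitors and normal MPs, genes were called at a Benjamini-Hochberg (BH) adjusted p under 0.05 (limma over 14595 genes) and a fold over 1.5, the fold used by the study. MRP mRNAs were for the most part modestly lower in APL. Of the 76 members, 15 were called lower (19.7%) and 0 were called higher, while 24.4% of all genes tested were called lower and 21.7% higher, so that the share called lower was near the background in this fit. With each library scaled to the same total, 28 members were called lower (36.8%, against 29.3% of all genes), which moved the share above that background. At any fold past the adjusted threshold, 48 members were lower (63.2%, against 37.3% of all genes) and 3 were higher (against 29.7%), which left 25 that did not pass. Groups did not overlap for 52 members that were lower in APL (39.8% of all genes) and for 3 that were higher (31.1% of all genes). The fitted log2 fold change was below 0 for 68 of 76 members, and its median was -0.38, against -0.10 for all genes tested, a difference of -0.28. The quartiles of the members were -0.56 and -0.21, a narrower span than the -0.63 and 0.53 of all genes tested.

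Without MP library 3, 12 members were called lower (15.8%, against 20.7% of all genes in that fit) and 0 higher (against 23.1%), with Mrpl15, Mrpl3 and Mrpl41 no longer called. At any fold 42 were then lower (55.3%, against 35.3%) and 6 higher (7.89%, against 33.5%), and the groups did not overlap for 52 lower (68.4%, against 41.5%) and 8 higher members (10.5%, against 38.1%). The median was -0.24, which was -0.21 from that of all genes. Leaving out MP library 2 gave 23 members called lower (30.3%, against 22.5% of all genes), and leaving out APL library 3 also gave 23 (30.3%, against 24.8%). Beside the 0 called higher, 3 members were higher at an unadjusted p under 0.05 and 0 of these passed the fold. Scaling each library to the same total moved the median of all genes by -0.13, and the MRP median relative to all genes was then -0.29.

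**Figure D2:**
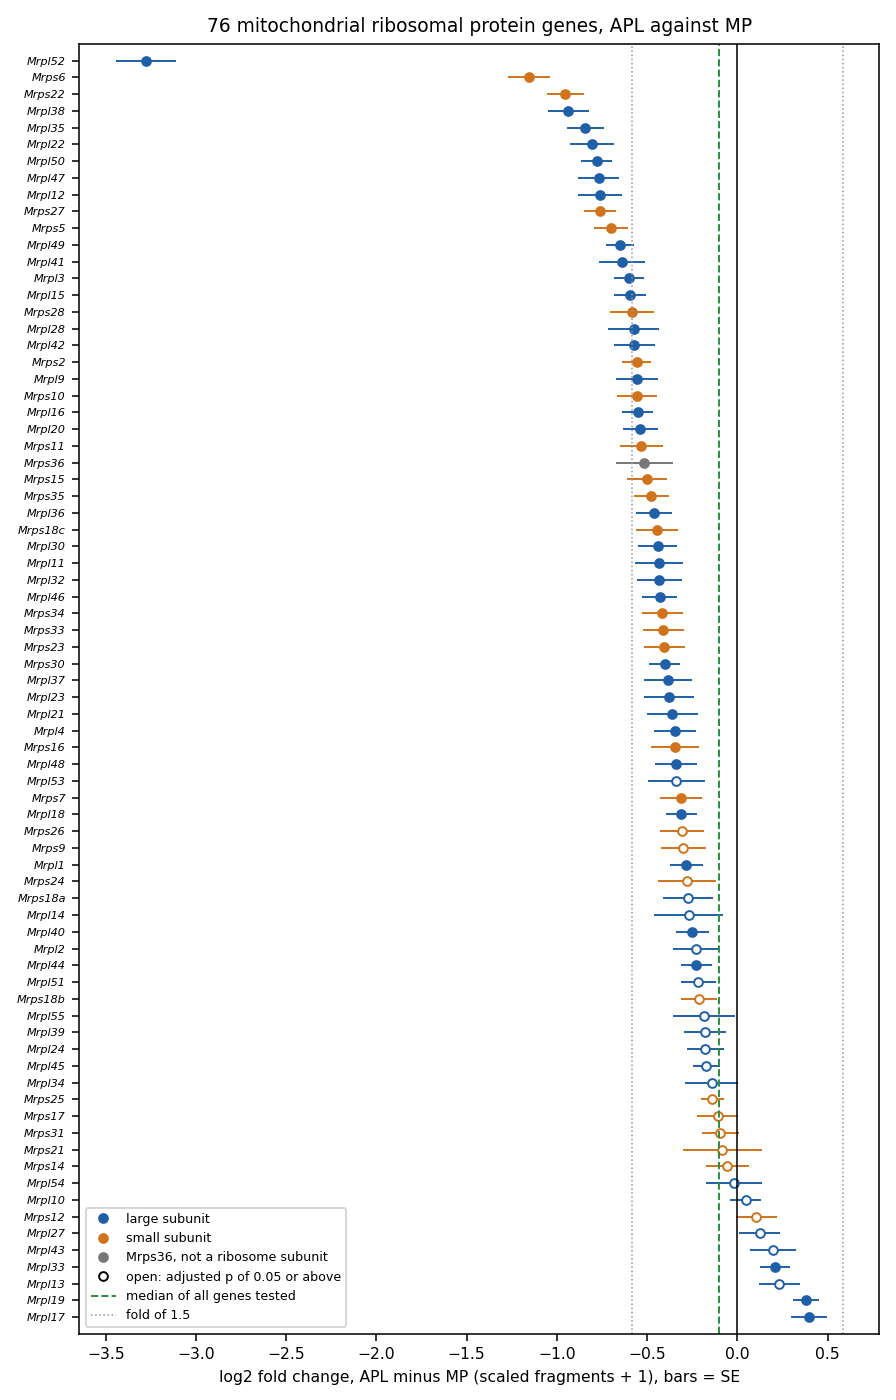
Fitted log2 fold change of each of the 76 members, APL minus MP, with its SE, ordered from the largest fall to the largest rise and coloured by subunit, with open points for an adjusted p of 0.05 or above. Mrpl52 lies alone at -3.28, the next member at -1.15, and the right end is formed by Mrpl19 and Mrpl17 at 0.38 and 0.40.

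Mrpl52 (chr14:54426909-54429750 on GRCm38), a large subunit protein without a bacterial homologue, showed the largest fall of the family. Normal MPs had 1102, 1136 and 1585 scaled fragments of it, and the 3 APL libraries had 108, 137 and 143. Even the lowest MP library was far above the highest APL library, and the gap was wide beside the spread within either group. The fit gave a 9.70-fold fall, a log2 fold change of -3.28 ± 0.17 (SE) with an adjusted p of 3.67e-07. Among all 14595 genes tested it ranked at place 918 from the lowest fold change, within the lowest 6.29%, and the next member, Mrps6, was at place 2302.

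Mrps6 (chr16:92058322-92112227), a small subunit protein of bacterial origin, had 402, 435 and 454 scaled fragments in normal MPs and 181, 184 and 215 in APL. The groups were far apart and the fall was 2.22-fold (log2 fold change -1.15 ± 0.12, adjusted p = 2.81e-05). The same locus is given for Slc5a3, a myo-inositol transporter gene with 209 to 489 scaled fragments in normal MPs and 300 to 378 in APL. The coordinates are thus not those of Mrps6 alone, and fragments could be divided between both genes. Mrps22 (chr9:98588730-98601679), a mitochondria-specific small subunit protein in which inherited mutations cause mitochondrial disease, had 779, 804 and 898 scaled fragments in normal MPs and 410, 478 and 395 in APL. Each APL value was well below each MP value, with a 1.94-fold fall (log2 fold change -0.95 ± 0.10, adjusted p = 4.61e-05).

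Mrpl38 (chr11:116131817-116138868), of the central protuberance of the large subunit, had 1063, 1108 and 1363 scaled fragments in normal MPs and 553, 666 and 621 in APL, a log2 fold change of -0.94 ± 0.12 (adjusted p = 9.84e-05). MP library 3 was the highest, and the other MP libraries were also above all APL libraries. Mrpl35, the member with the lowest mean FPKM, had 921, 1006 and 1181 scaled fragments and then 581, 542 and 602, a log2 fold change of -0.84 ± 0.10 (adjusted p = 1.07e-04). The member with the lowest mean FPKM and the one with the highest FPKM in normal MPs, Mrpl52, were thus both among the called genes.

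Some members at the exit tunnel, through which the new chain leaves the large subunit, were among the called genes. Mrpl22, which lines the tunnel, had 821, 719 and 942 scaled fragments in normal MPs and 421, 481 and 516 in APL, with a log2 fold change of -0.80 ± 0.12 (adjusted p = 3.76e-04). Mrpl47, at the rim of the exit, had 672, 697 and 824 and then 429, 387 and 470, a log2 fold change of -0.77 ± 0.11 (adjusted p = 3.13e-04). Mrpl50, a mitochondria-specific protein, had 1761, 1860 and 2157 and then 1131, 1090 and 1133, a log2 fold change of -0.78 ± 0.09 (adjusted p = 5.21e-05). In all 3, no APL library reached the lowest MP library. Of the 10 members listed for the tunnel and its rim, 3 were called lower (30%, against 24.4% of all genes tested). At any fold 6 were lower (60%, against 37.3%) and 1 (Mrpl17) higher (against 29.7%), and the median was -0.29. Without MP library 3, 3 were called lower (30%, against 20.7% of all genes), and at any fold 4 were lower (40%, against 35.3%) and 1 higher.

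Mrpl12 (chr11:120484669-120488754) forms the L7/L12 stalk that recruits translation factors, and its protein is also known to bind the mitochondrial RNA polymerase. It had 2962, 2897 and 3734 scaled fragments in normal MPs and 1655, 1863 and 2124 in APL. Groups were apart by more than the spread within them, with a 1.70-fold fall (log2 fold change -0.76 ± 0.12, adjusted p = 5.08e-04). Of the 5 members listed for the stalk and GTPase centre, it alone was called lower (20%, against 24.4% of all genes tested). Their median was -0.34, and Mrpl12 was also the one called without MP library 3 (20%, against 20.7%). Mrpl10, which anchors the stalk, had 1260, 1244 and 1480 scaled fragments and then 1342, 1402 and 1355, with a log2 fold change of 0.05 ± 0.08 (adjusted p = 0.653). The 2 groups overlapped for Mrpl10.

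The other called members were Mrps27, Mrps5, Mrpl49, Mrpl41, Mrpl3 and Mrpl15, with log2 fold changes between -0.76 and -0.60. Mrps5, which lies at the mRNA channel of the small subunit, had 1449, 1298 and 1646 scaled fragments in normal MPs and 881, 941 and 870 in APL, and Mrpl3, which reaches toward the peptidyl transferase centre, had 2086, 2160 and 2532 and then 1457, 1491 and 1507. Neither overlapped between groups. Mrpl15 (1.51-fold) and Mrpl3 (1.52-fold) lay just inside the fold limit, and Mrps28 with a fold of 1.499 just outside it. Across 18 alternative settings 12 of the 15 were called in all, and 13 further members were called lower in at least 1 of them.

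**Figure D3:**
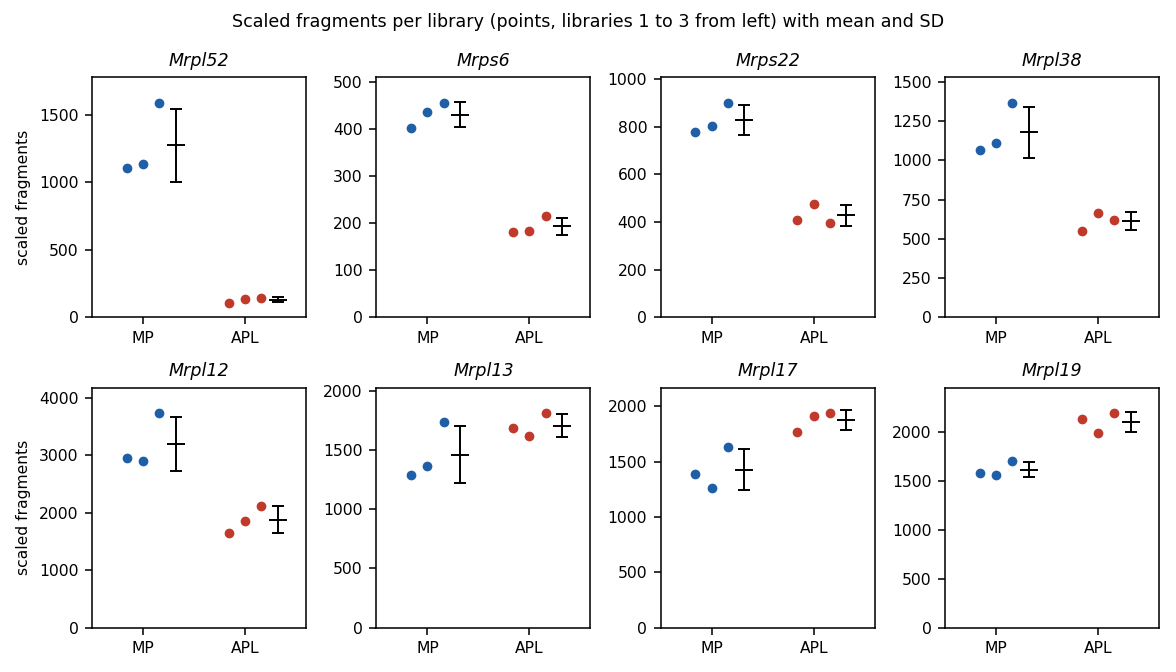
Scaled fragments (y axis from 0) of 8 members in the 3 MP and the 3 APL libraries, one point per library, with the mean and SD beside them. Mrpl52, Mrps6, Mrps22, Mrpl38 and Mrpl12 are lower in each APL library than in any MP library, Mrpl13 overlaps between groups, and Mrpl17 and Mrpl19 are higher in each APL library.

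Against this trend, 3 large subunit members were higher in APL past the adjusted threshold, all under the fold limit. Mrpl17 (chr7:105803782-105811087), at the tunnel exit, had 1387, 1262 and 1632 scaled fragments in normal MPs and 1768, 1912 and 1937 in APL. All APL values were above all MP values, with a log2 fold change of 0.40 ± 0.10 (adjusted p = 0.00651). Mrpl19 (chr6:81923669-81965949) had 1588, 1559 and 1710 and then 2136, 1996 and 2196, a log2 fold change of 0.38 ± 0.07 (adjusted p = 0.00137). The same locus is given for AW146020, which was lower in APL (-0.42). Mrpl33, the member with the highest mean FPKM, had 1657, 1510 and 1792 and then 1979, 1952 and 1796. Its highest MP value and lowest APL value nearly touched, and its log2 fold change of 0.21 ± 0.08 passed narrowly (adjusted p = 0.0498). Mrpl17 and Mrpl19 stayed past the adjusted threshold in all 18 alternatives, and Mrpl33 in 6.

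Members nearest to no change were Mrpl54, Mrpl10, Mrps14 and Mrps21, with log2 fold changes of -0.02, 0.05, -0.05 and -0.08 and SEs of 0.15, 0.08, 0.12 and 0.22. Mrps21 varied most between libraries, from 357 to 608 scaled fragments in normal MPs and from 348 to 534 in APL. Mrps12, the decoding centre protein whose bacterial form is the site of streptomycin resistance mutations, had 531, 530 and 626 scaled fragments in normal MPs and 534, 669 and 616 in APL. Groups overlapped, with a log2 fold change of 0.11 ± 0.11 (adjusted p = 0.432). Mrps36 had 528, 569 and 813 and then 405, 441 and 468, a log2 fold change of -0.51 ± 0.16 (adjusted p = 0.0175), and did not pass the fold.

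Members of both subunits were lower in APL, with medians close to each other. Large subunit members were called lower in 11 of 49 cases (22.4%, against 24.4% of all genes tested). At any fold 31 were lower (63.3%, against 37.3%) and 3 higher (against 29.7%), with a median of -0.36. Small subunit members were called lower in 4 of 26 (15.4%), with 16 lower (61.5%) and 0 higher at any fold and a median of -0.41. The 46 members of bacterial origin (8 called lower, 17.4%, median -0.37) and the 29 mitochondria-specific ones (7 called lower, 24.1%, median -0.39) had medians of like size. By site, 1 of 6 members of the decoding centre and mRNA channel was called lower (16.7%, median -0.39). Near the peptidyl transferase centre it was 1 of 4 (25%, median -0.39), against 24.4% of all genes tested. Without MP library 3, called lower were 8 large (16.3%) and 4 small subunit members (15.4%), 6 of bacterial origin (13%) and 6 mitochondria-specific ones (20.7%). Then 1 was called at the decoding centre (16.7%) and 0 near the peptidyl transferase centre, against 20.7% of all genes in that fit. No test was made between these classes. The S18 family has 3 paralogues. Mrps18a had a log2 fold change of -0.27 ± 0.14, Mrps18b -0.21 ± 0.10 and Mrps18c -0.44 ± 0.12, and of these Mrps18c alone passed the adjusted threshold (adjusted p = 0.00822). Differences between the paralogues were not tested.

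**Figure D4:**
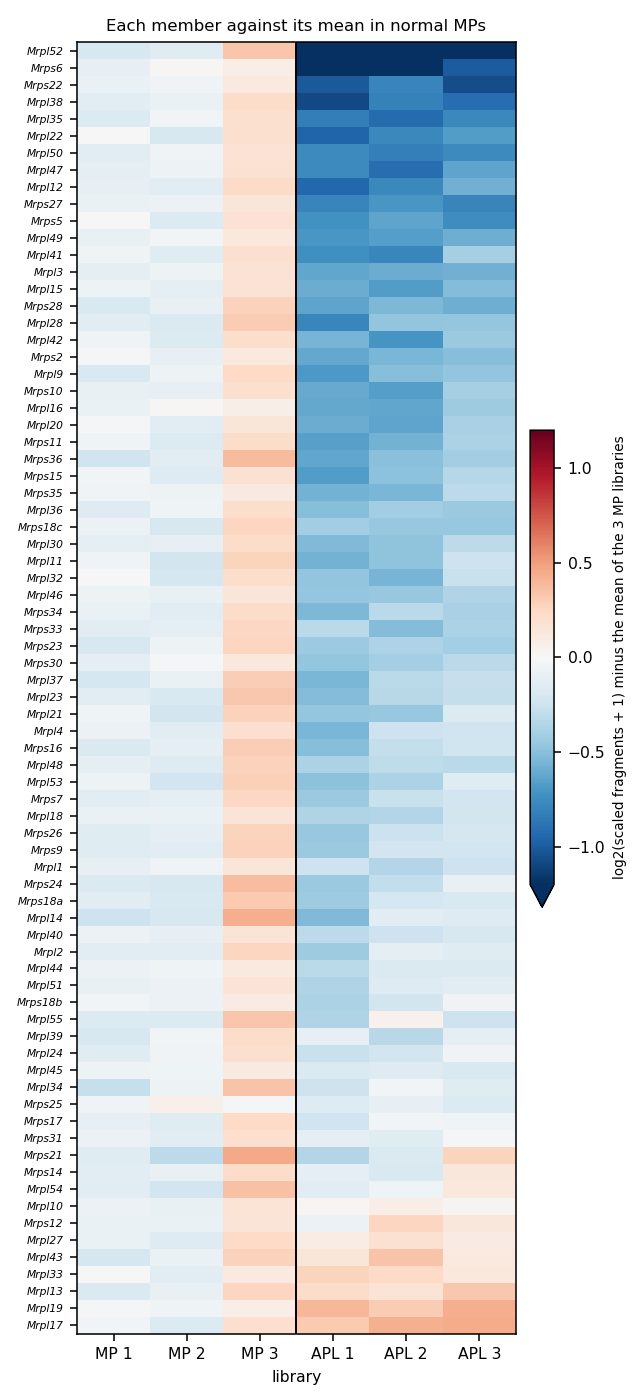
Each member (rows, ordered by log2 fold change) in each of the 6 libraries (columns), as log2(scaled fragments + 1) minus the mean of the 3 MP libraries, with colours clipped at -1.2. MP 3 is above MP 1 and MP 2 in 75 of 76 rows, and the APL columns are blue for most rows and red for the lowest rows, which hold Mrpl19 and Mrpl17.

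A few members lay on chromosomes whose genes were higher in APL as a whole. All tested genes of chromosome 8 (778) had a median log2 fold change of 0.48 and those of chromosome 15 (563) one of 0.46, well above the -0.10 of all genes. Mrpl34 and Mrps31 on chromosome 8 had -0.14 ± 0.15 and -0.09 ± 0.10, and Mrpl13 on chromosome 15 had 0.23 ± 0.11, and none of them passed the adjusted threshold. Mrpl13 had 1284, 1361 and 1735 scaled fragments in normal MPs and 1685, 1618 and 1808 in APL, and without MP library 3 it passed the adjusted threshold as higher. Without these chromosomes the median of the 73 other members was -0.40. The loci of 9 members were each given for another gene of the table too, so that these coordinates are not those of the member alone. The 67 members with a locus of their own had 11 called lower (16.4%, against 24.4% of all genes) and a median of -0.39. Without MP library 3, 9 of them were called lower (13.4%, against 20.7%). Mrpl46 and Mrps11 lie 41 bases apart on chromosome 7, and both were lower past the adjusted threshold, with log2 fold changes of -0.43 ± 0.10 and -0.53 ± 0.12.

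Most genes listed as mitochondrial translation factors were lower in APL. Of 7 mitoribosome proteins under other symbols, 3 were lower at any fold (42.9%, against 37.3% of all genes tested) and 0 higher. Called lower were 2 (28.6%, against 24.4%). Ptcd3 (-0.92 ± 0.07) and Dap3 (-0.61 ± 0.09), both of the small subunit, were called lower, and Chchd1 had -0.53 ± 0.13 without passing the fold. Without MP library 3, 1 of the 7 was called lower (14.3%, against 20.7% of all genes). Of the 16 genes listed as translation factors, 9 were called lower (56.2%, against 24.4% of all genes tested). At any fold, 13 were lower (81.2%, against 37.3%) and 0 higher, and the median was -0.59. Oxa1l, Lrpprc and Slirp, which are not translation factors in the strict sense, were among the called genes of this list, Slirp at 1.501-fold. Without MP library 3, 7 of the 16 were called lower (43.8%, against 20.7% of all genes). The largest falls were those of Mrrf, the ribosome recycling factor (-0.86 ± 0.09, adjusted p = 4.27e-05), Gfm2, its partner GTPase in recycling (-0.78 ± 0.07, adjusted p = 1.24e-05), and Tufm, the elongation factor that brings aminoacyl-tRNA (-0.77 ± 0.11, adjusted p = 1.91e-04). Tufm had 3594, 3861 and 4452 scaled fragments in normal MPs and 2041, 2514 and 2402 in APL.

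Assembly factors were mixed. Of 27 tested, 6 were called lower (22.2%, against 24.4% of all genes tested) and 1 higher (against 21.7%). At any fold 11 were lower (40.7%, against 37.3%) and 3 higher (against 29.7%), with a median of -0.27. Leaving out MP library 3 gave 4 called lower (14.8%, against 20.7% of all genes), and leaving out APL library 1 gave 3 (against 24.1%). C1qbp, a matrix protein needed for mitochondrial translation, had the largest fall, from 7332, 7333 and 8893 scaled fragments in normal MPs to 3523, 3822 and 4045 in APL (log2 fold change -1.04 ± 0.10, adjusted p = 1.54e-05), and APL values were all below MP values. Fastkd2 (-0.76 ± 0.11) and Wbscr16 (-0.75 ± 0.09), both linked to maturation of the mitochondrial 16S rRNA, were called lower. Ddx28, an RNA helicase of large subunit assembly that lies on chromosome 8, was called higher, with 472, 481 and 513 and then 754, 889 and 776 scaled fragments (0.72 ± 0.09, adjusted p = 1.38e-04).

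Genes for mitochondrial transcription and mtDNA maintenance had 4 of 13 called lower (30.8%, against 24.4% of all genes tested) and 0 higher. At any fold 10 were lower (76.9%, against 37.3%) and 1 higher, with a median of -0.50. The 3 with the largest change were Tfam, which packages mtDNA and starts transcription (-0.95 ± 0.07, adjusted p = 5.31e-06), Peo1, the mtDNA helicase (-0.80 ± 0.08), and Pnpt1, an RNA-degrading enzyme (-0.73 ± 0.07). Without MP library 3, 4 of the 13 were called lower (30.8%, against 20.7% of all genes) and 1 higher. Among 10 regulators of mitochondrial biogenesis, 2 were called lower (20%, against 24.4% of all genes tested). They were Gabpb1 (-0.64 ± 0.07), the partner of GABP-alpha at ETS sites, and Pprc1 (-0.64 ± 0.07), a coactivator of the PGC-1 family. Ppargc1a, the founding member of that family, was called higher but was near the lower limit of detection in normal MPs, with 2.81, 2.86 and 1.8 scaled fragments against 38.9, 21.7 and 33.3 in APL. At any fold 5 of the 10 regulators were lower (50%, against 37.3%) and 1 higher (against 29.7%). Gabpa, the gene of GABP-alpha, had 0.15 ± 0.07 (adjusted p = 0.0765). Nrf1 (-0.43 ± 0.08) and Yy1 (-0.20 ± 0.06) were lower past the adjusted threshold without passing the fold. The regulators had the same counts of 2 called lower (20%, against 20.7% of all genes) and 1 higher without MP library 3. The mRNAs encoded by mtDNA were not analysed here.

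The MRP genes were set beside the cytosolic ribosome and the respiratory chain. Cytosolic ribosomal proteins were called lower in 32 of 83 cases (38.6%, against 24.4% of all genes tested) and higher in 1. At any fold 55 were lower (66.3%, against 37.3%) and 1 higher, with a median of -0.55. The count depended on single libraries. It was 9 of 82 tested (11%, against 20.7% of all genes) without MP library 3 and 51 without MP library 2 (against 22.5%). The respiratory chain set by its symbols also holds some assembly factors and tissue isoforms. Its genes were called lower in 15 of 88 (17%, against 24.4% of all genes tested) and higher in 3. At any fold 36 were lower (40.9%, against 37.3%) and 7 higher, with a median of -0.27. Without MP library 3, 8 were called lower (9.09%, against 20.7%). The MRP median of -0.38 lay between both. Differences between the 3 sets were not tested. Several marker sums given above also differed between the groups, and their part in these lists was not tested.

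**Figure D5:**
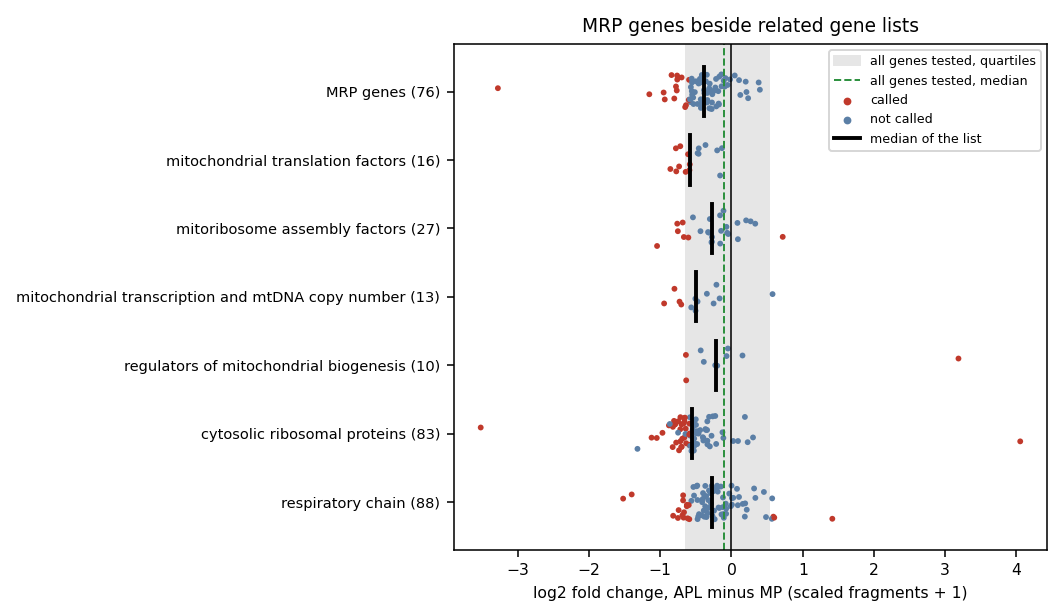
Log2 fold change, APL minus MP, of each tested gene (points, red where called) in the MRP genes and 6 related lists, with the median of each list as a bar and the quartiles and median of all genes tested as a band and a dashed line. Medians run from -0.59 for translation factors to -0.21 for regulators of biogenesis, and the MRP median is -0.38.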

How the data were processed

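RNA-seq was done on 6 libraries, 3 of normal Lin-Sca-1-c-Kit+ BM cells (MP) and 3 of GFP-labeled c-Kit+ APL cells, with total RNA and TruSeq preparation. The authors deposited 1 table with FPKM values, normalized to transcript length and mapped fragments, and fragment values, a signal in which the authors' processing multiplied estimated fragments by 1 number per library. The submitters' processing notes list CASAVA 1.8, TopHat2 2.0.6 and mm10 without roles, and the study's methods name Cutadapt, STAR on mm9, HTSeq-count and DESeq2. The tool that made the table is not given in the sources used here. All 76 member IDs were in RefSeq, and their loci overlapped the RefSeq genes on GRCm38. Starts as given here were those of RefSeq for 34 of the 76 and 1 base beyond them for 2. Dividing by the smallest step gave whole numbers for 87.6% to 90.3% of values (tolerance 0.05), too few for a test on counts.

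Genes with at least 1 scaled fragment in at least 3 of 6 libraries (14595 of 16440) were fitted on log2(scaled fragments + 1) in limma 3.58.1 (R 4.3.3), by lmFit and trended eBayes, a scale that understates the change of low genes. P-values were BH-adjusted over all genes tested, and genes were called at an adjusted p under 0.05 and a fold over 1.5. The smallest p of an exact permutation test of 3 against 3 libraries is 0.1, which 50 of the 51 members past the adjusted threshold reached. The fit was tested on simulated data. Members and lists were chosen with earlier results of these data known. Named members were the 8 largest rises and falls past the adjusted threshold without overlap, the 5 highest and 5 lowest by FPKM, the 4 nearest 0, those on chromosomes 8 and 15, and Mrpl12, Mrps12 and Mrps36, with 3 genes of each related list. Other genes, such as called members just inside the fold, were named after their values were seen. Plots used Python 3.11.15 and matplotlib 3.10.9. ATRA and ATO samples were not analysed here.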

Additional observations from a re-analysis of the deposited data

How the results depend on the processing

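The MRP median stayed below that of all genes tested in each of 18 alternatives, by 0.21 to 0.37 on the log2 scale, and 35 members stayed lower and 2 higher past the adjusted threshold in all of them. The number called lower depended on scaling and on the fold: it was 15 as reported (19.7%, against 24.4% of all genes), 28 with the same total per library (36.8%, against 29.3%), 28 with voom weights (36.8%, against 29.2%), 46 (and 2 higher) at a fold over 1.2 (60.5%, against 35.6%) and 2 at a fold over 2 (2.63%, against 16.6%). Both scalings moved the median of all genes by -0.13. Leaving out 1 library gave 12 to 23 called lower and 2 to 6 higher at any fold. Translation factors called lower went from 9 to 5 with median-ratio scaling. Leave-one-library-out ranges were 3 to 7 for assembly factors, 9 to 51 for cytosolic ribosomal proteins and 8 to 19 for the respiratory chain. Cytosolic ribosomal proteins called lower were 55 with the same total, 53 with quantile normalization and 56 with voom weights, and the respiratory chain gave 23 with the same total and 23 with voom weights. With FPKM as the measure, 14 members were called lower and 0 higher. The cause of these shifts was not tested.

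The log2 fold change of 9 members changed sign in at least 1 alternative. Mrps17 (-0.241 to 0.0124) and Mrpl27 (-0.0100 to 0.241) are given by their range, and the 7 others below. The log2 fold change of Mrpl54 was 0.0428 with median-ratio scaling, 0.0047 and 0.0045 with FPKM, 0.156 without MP replicate 3 and 0.0404 without APL replicate 1. Mrpl10 was at -0.0852 with the same total and -0.0860 with voom, and Mrps12 at -0.0242 and -0.0253. Mrps14 was at 0.0078 with median-ratio scaling, 0.0542 without MP replicate 3 and 0.0092 without APL replicate 2, with a range of -0.149 to 0.0542 over all omissions. Mrps21 was at 0.0193 and 0.0190 with FPKM, 0.143 without MP replicate 3 and 0.0479 without APL replicate 1 (lowest -0.262). Over the omissions of 1 library, Mrpl34 ranged from -0.280 to 0.0275 and Mrps31 from -0.155 to 0.0047, both highest without MP replicate 3. Of 738 values of named genes under alternatives, 687 kept direction and side of the threshold, 24 no longer passed, 9 newly passed and 18 changed sign.

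Whether the replicate numbers pair the libraries of both groups was not settled. Deviations of same-numbered libraries correlated at 0.214, 0.0416 and 0.209 over 10310 genes. MP 1 and MP 3 correlated best with the APL library of the same number, and MP 2 with APL 1 (0.200). With the number as a replicate block, 15 members were called lower and 0 higher. At any fold 55 were then lower and 4 higher, against 48 and 3 in the main fit. No 2 libraries of a group agreed within counting noise, which shows only that none is a copy of another. Members had at least 92 fragments in each library, and the part of depth in the calls was not tested. Arms of 2 libraries took their spread from the pooled fit.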

Other observations

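Next to Mrpl52 on chromosome 14 lies Mmp14, which encodes a membrane-bound matrix metalloproteinase. It begins 1853 bases beyond Mrpl52 and had 373, 404 and 595 scaled fragments in normal MPs and 2.36, 1.73 and 4.94 in APL. Lrp10, the next gene of the table on that side, 34396 bases from Mrpl52, had a log2 fold change of -0.04 ± 0.11 (adjusted p = 0.756). On the other side of Mrpl52, 9206 bases away, a single locus of the table holds both Oxa1l and Slc7a7. Oxa1l is the insertase that places mitochondrial translation products in the inner membrane, and Slc7a7 is an amino acid transporter. Oxa1l was called lower (log2 fold change -0.64 ± 0.12), and Slc7a7 had -0.39 ± 0.17 without passing the adjusted threshold.

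Genes that share a locus with a member did not all move with it. Mrpl49 was called lower at -0.65 ± 0.08, while Syvn1, which shares its locus and encodes a ubiquitin ligase of the endoplasmic reticulum, was called higher at 0.66 ± 0.08. Mrpl48 had -0.34 ± 0.11 and Rab6a, a Golgi trafficking GTPase, was called higher at 0.63 ± 0.07. Mrpl41 (-0.64 ± 0.13) and Wdr85 (-0.79 ± 0.10) were both called lower. These pairs were chosen after their values were seen.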
